A study of Mus musculus with 4 samples.

Results

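Cell cycle and proliferation genes were followed in pancreatic islets of GPR41 transgenic (Tg) mice and of their wild-type (WT) littermates, 2 arrays to a group. GPR41 is a receptor for short-chain fatty acids, encoded in the mouse by Ffar3. All islets came from C57BL/6 mice aged 5 to 6 months and stood in RPMI culture medium before RNA was taken. The sources used here give neither the promoter of the transgene nor the cells that express it, nor whether an array holds islets of 1 mouse or of several, so p-values measure only the spread between these arrays. The list held 52 symbols, chosen by name, and 50 of them had a probeset (the set of array probes that reads a transcript) paired with that symbol alone, of 22180 genes measured. They were 17 regulators of G1, 11 genes of DNA replication and 22 genes of mitosis. Ccne2 shared its probeset with another gene and Ccnb1 had no entry in the annotation table used, so the expression of neither was analysed here. The promoter of Ccnb1 was kept among those of the mitosis genes.

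A dividing cell passes through G1, the gap in which it commits to division, then through DNA synthesis and mitosis. D-type cyclins with Cdk4 or Cdk6 release E2F factors from the retinoblastoma protein, inhibitors of the Cdkn1 and Cdkn2 families hold these kinases back, and E2F then switches on replication genes. Genes of mitosis are switched on later, through CCAAT boxes and a short element called the cell cycle genes homology region (CHR). Adult beta cells divide rarely, and their best known growth episode is pregnancy, when prolactin signalling lowers menin (Men1) and raises FoxM1 activity in mice.

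The promoters of the role groups were searched for these elements. RefSeq promoter windows on GRCm38.p6 (250 bases before to 50 bases after an annotated start) were found for 42 of the 52 symbols, with 50 promoters among them, and the stretches of 150 bases that precede the start are printed 5′ to 3′ for 6 members. Cdk1, Top2a and Mki67 are shown as mitosis genes that set the arrays apart, Mcm5 and Pcna as replication genes, and Cdkn1b as the member with the smallest p. Capitals mark CCAAT, the CHR forms TTTGAA and TTCGAA, and the E2F forms TTTGGCGC, TTTCCCGC, TTCCCGCC and CGCGAA, each searched on both strands (CCAAT then reads ATTGG). TTTCCCGC and TTCCCGCC can overlap, and TTCGAA reads the same on both strands.
Cdk1 (chr10:69352913-69353062, minus strand): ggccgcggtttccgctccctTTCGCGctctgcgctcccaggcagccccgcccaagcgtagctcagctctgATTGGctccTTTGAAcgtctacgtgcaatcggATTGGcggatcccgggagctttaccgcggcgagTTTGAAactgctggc
Top2a (chr11:99024190-99024339, minus strand): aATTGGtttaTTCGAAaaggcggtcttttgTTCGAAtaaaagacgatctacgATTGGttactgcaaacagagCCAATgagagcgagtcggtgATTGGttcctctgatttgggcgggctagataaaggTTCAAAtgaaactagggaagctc
Mki67 (chr7:135716380-135716529, minus strand): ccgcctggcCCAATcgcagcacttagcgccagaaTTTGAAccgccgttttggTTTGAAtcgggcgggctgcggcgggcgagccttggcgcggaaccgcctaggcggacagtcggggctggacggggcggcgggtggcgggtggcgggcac
Mcm5 (chr8:75109359-75109508, plus strand): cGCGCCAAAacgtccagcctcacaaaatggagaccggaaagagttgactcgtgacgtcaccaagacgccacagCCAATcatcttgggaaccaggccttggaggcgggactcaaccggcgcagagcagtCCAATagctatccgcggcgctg
Pcna (chr2:132253181-132253330, minus strand): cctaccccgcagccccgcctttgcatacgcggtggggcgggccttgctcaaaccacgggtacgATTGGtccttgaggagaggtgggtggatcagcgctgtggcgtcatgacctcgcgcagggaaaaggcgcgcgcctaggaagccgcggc
Cdkn1b (chr6:134920251-134920400, plus strand): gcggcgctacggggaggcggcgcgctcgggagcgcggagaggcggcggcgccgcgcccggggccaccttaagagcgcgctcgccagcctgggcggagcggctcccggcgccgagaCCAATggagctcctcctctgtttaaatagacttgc
In these stretches Cdk1 held 2 CCAAT, 2 TTTGAA and 1 CGCGAA matches, and Top2a held 4 CCAAT matches beside 3 of the CHR forms. Mcm5 held 1 TTTGGCGC match and 2 CCAAT matches, and Cdkn1b held 1 CCAAT match alone.

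Over the whole windows, a CHR form stood in 14 of 18 promoters of mitosis genes (77.8%), in 2 of 11 of replication genes (18.2%) and in 2 of 21 of G1 regulators (9.52%), against 19.2% of all 32851 promoters in the table. An E2F form stood in 7 of 11 promoters of replication genes (63.6%), in 5 of 21 of G1 regulators (23.8%) and in 1 of 18 of mitosis genes (5.56%), against 7.02% of all. CCAAT stood in 16 of 18 promoters of mitosis genes (88.9%) and in 9 of 11 of replication genes (81.8%), against 37.4% of all. In G1 regulators it stood in 11 of 21 (52.4%), and these 21 promoters belong to only 14 genes. The matches describe these letters only, and promoters of Aurkb, Ccna2, Ccnd1, Ccnd2, Ccne2, Cdkn1c, Foxm1, Kif20a, Mcm4 and Tpx2 were not used here.

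Values are log2 signals that the authors had normalised by RMA, and each array's median over all probesets lay between 6.43 and 6.47. Ffar3 was at 11.02 and 10.98 on the Tg arrays, against 7.09 and 6.47 on the WT arrays (difference 4.22, SE 0.21), so both arrays labelled Tg were high in the named gene. Beta cell markers such as Ins2 (12.52 and 12.59 on the Tg arrays, 12.57 and 12.46 on the WT arrays) were bright on every array. The enzyme genes of acinar cells were bright as well, with list means of 11.30 and 11.00 on the Tg arrays and 10.69 and 11.54 on the WT arrays.

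No member passed the test between Tg and WT. In limma's fit over all genes, 0 of 50 members had an adjusted p under 0.05, against 0.897% of all 22180 genes. At an unadjusted p under 0.05 there were 6 members (12.0%), against 11.8% of all genes. Of these, Mcm5, Ttk, Ube2c, Kif11 and Aurkb were higher in Tg, against 6.13% of all genes in that direction, and Cdkn1b was lower, against 5.72%. Over all 50 members 39 had a higher mean in Tg, which was true of 45.7% of all genes, with a median log2 difference of 0.097 against -0.017 for all genes. Groups did not overlap for 15 members that were higher in Tg and 4 that were lower, against 18.6% and 23.7% of all genes. For 43 members the 95% confidence interval of the difference lay within 2-fold either way, and the 7 whose intervals reached beyond that were mitosis genes.

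**Figure D1:**
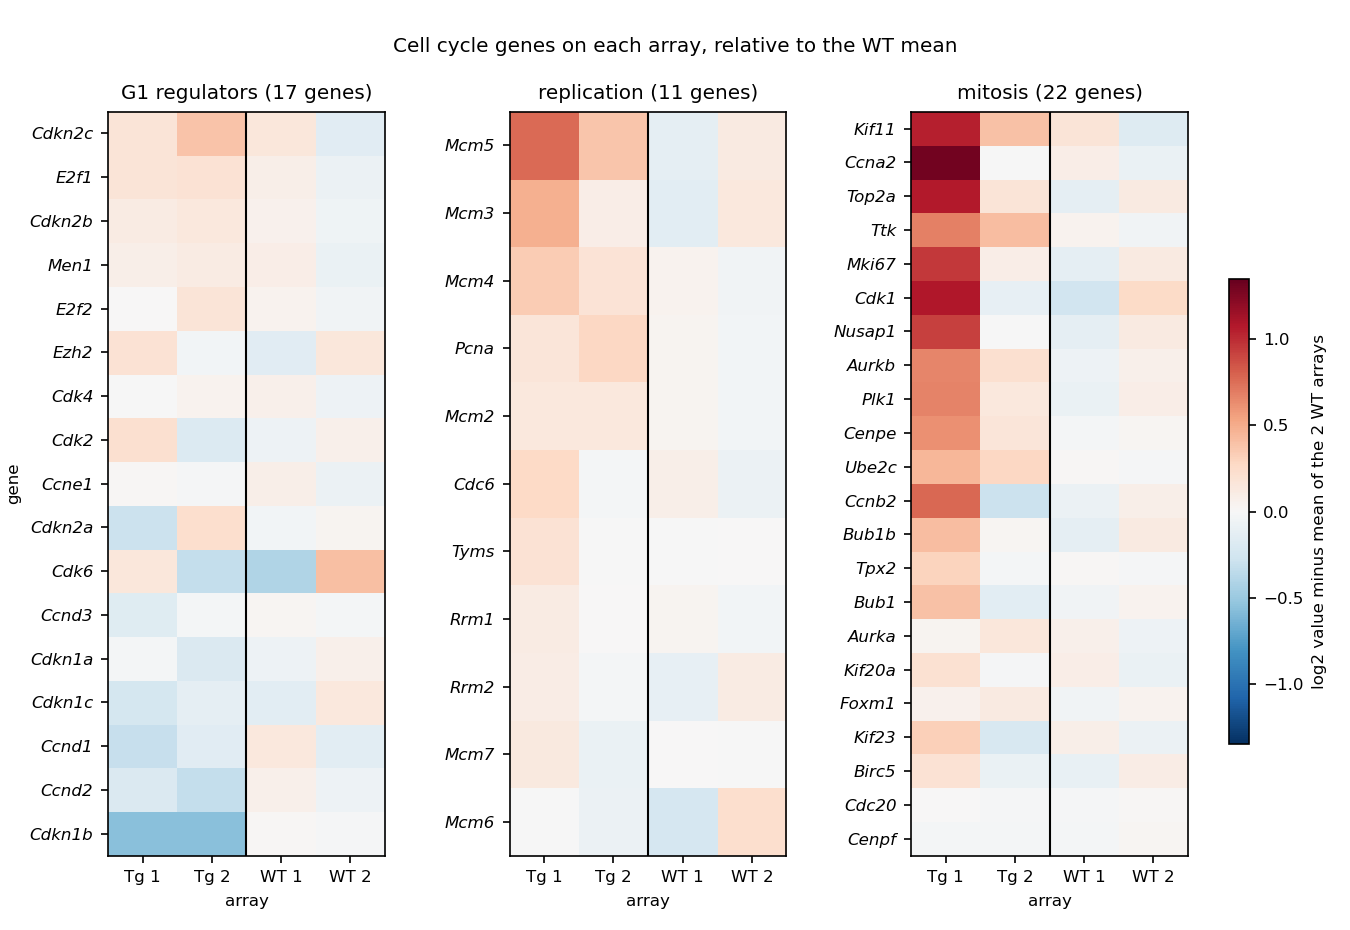
Log2 value of each of the 50 members on each array minus the mean of the 2 WT arrays (colour), with genes of each role group ordered by their difference, highest at the top. The Tg replicate 1 column of the mitosis panel is the reddest, and Cdkn1b is blue on both Tg arrays.

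The G1 regulators did not move as a group, and the clearest single difference among them was in a kinase inhibitor. Of 17 measured, 9 had a higher and 8 a lower mean in Tg, with a median difference of 0.0012 and role group means of 8.45 and 8.45 on the Tg arrays and 8.49 and 8.49 on the WT arrays. Cdkn1b, which encodes the inhibitor p27, was at 8.76 and 8.76 on the Tg arrays, against 9.34 and 9.30 on the WT arrays. Both Tg arrays lay below both WT arrays, and the arrays within each group lay close together. The difference was -0.56 (SE 0.10, 95% confidence interval -0.81 to -0.31), a 1.48-fold lower level in Tg, with an adjusted p of 0.094 by limma. That is rank 383 of all genes by p, and its adjusted p lay between 0.040 (variance trend with robust prior) and 0.452 (no moderation) in 13 alternatives.

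The D-type cyclins, which drive the kinases of G1, had lower means in Tg, and none passed the test. Ccnd2, the D-type cyclin that adult mouse beta cells need to expand, was at 12.18 and 12.06 on the Tg arrays, against 12.45 and 12.31 on the WT arrays (difference -0.26, SE 0.11, adjusted p = 0.454). Ccnd1 was at 9.84 and 9.9996 on the Tg arrays, against 10.29 and 10.02 on the WT arrays (difference -0.23, SE 0.14). Neither cyclin's arrays overlapped between the groups, although WT replicate 2 of Ccnd1 lay only just above Tg replicate 2. Ccnd3 had a difference of -0.09, and the catalytic partner Cdk4 one of 0.02 (95% confidence interval -0.25 to 0.29). Cdk6 was at 6.89 and 6.41 on the Tg arrays, against 6.33 and 7.14 on the WT arrays, so its arrays differed more within a group than between groups. The same held for Cdk2, the kinase that cyclin E activates, at 6.99 and 6.58 on the Tg arrays and 6.70 and 6.84 on the WT arrays. Ccne1, which encodes cyclin E, had a difference of 0.0012.

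None of the measured INK4 inhibitors, which block Cdk4 and Cdk6, passed the test. Cdkn2c was at 7.55 and 7.77 on the Tg arrays, against 7.54 and 7.23 on the WT arrays (difference 0.28, SE 0.15), with the lower Tg array just above the higher WT array. Cdkn2b had a difference of 0.13 without overlap between the groups. Cdkn2a, whose product accumulates with age in islets, was at 6.33 and 6.84 on the Tg arrays and spanned the WT values of 6.58 and 6.65. Cdkn1a, the p53 target that encodes p21, was at 11.52 and 11.35 on the Tg arrays, against 11.48 and 11.62 on the WT arrays, and overlapped between groups (difference -0.11). Cdkn1c, the imprinted inhibitor of the same family as Cdkn1b, had a difference of -0.18.

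Among the transcription and chromatin regulators of this group, E2f1, which activates replication genes, was at 8.38 and 8.39 on the Tg arrays, against 8.28 and 8.12 on the WT arrays. Its groups did not overlap, but the difference of 0.18 (SE 0.11) did not pass. E2f2 had a difference of 0.09. Men1, which encodes menin, was at 9.60 and 9.63 on the Tg arrays, against 9.61 and 9.43 on the WT arrays, and WT replicate 1 lay between the Tg arrays. Its difference of 0.10 had a 95% confidence interval of -0.18 to 0.37. Ezh2, a methyltransferase that represses Cdkn2a, was at 8.55 and 8.32 on the Tg arrays, against 8.21 and 8.50 on the WT arrays, with the groups interleaved.

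**Figure D2:**
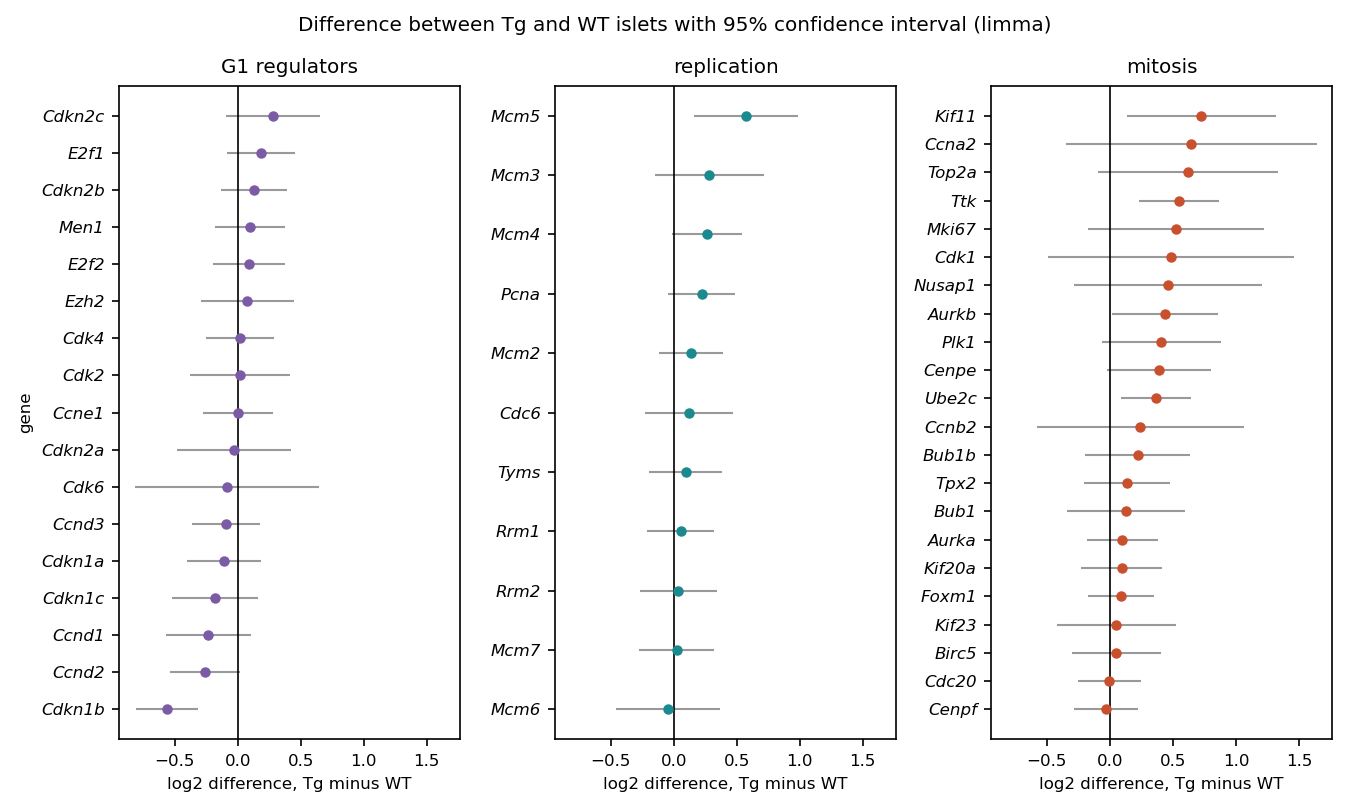
Log2 difference between Tg and WT (points) with its 95% confidence interval from limma (lines) for each member, by role group. Only Cdkn1b, Mcm5, Kif11, Ttk, Aurkb and Ube2c have intervals that leave out 0, and the widest interval is that of Ccna2.

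Replication genes leaned higher in Tg. Of 11, 10 had a higher mean in Tg, with a median difference of 0.12, and role group means were 7.95 and 7.78 on the Tg arrays against 7.67 and 7.73 on the WT arrays. Mcm5, a subunit of the MCM helicase that opens DNA at origins, was at 7.63 and 7.25 on the Tg arrays, against 6.75 and 6.99 on the WT arrays (difference 0.57, SE 0.17, adjusted p = 0.266). Both Tg arrays lay above both WT arrays, and without Tg replicate 1 the difference was 0.38. Its partner Mcm4 was at 8.61 and 8.45 on the Tg arrays, against 8.31 and 8.22 on the WT arrays (difference 0.26, SE 0.11). Mcm2 was at 8.28 on both Tg arrays, against 8.18 and 8.10 on the WT arrays, also without overlap (difference 0.14).

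The other subunits of the helicase overlapped between the groups. Mcm3 was at 7.10 and 6.71 on the Tg arrays, against 6.47 and 6.77 on the WT arrays, and Mcm6 at 8.27 and 8.20, against 8.05 and 8.50. Mcm7 had a difference of 0.02 (95% confidence interval -0.27 to 0.32). Pcna, the sliding clamp of DNA polymerase, was at 11.07 and 11.18 on the Tg arrays, against 10.94 and 10.87 on the WT arrays (difference 0.22, SE 0.11), and here Tg replicate 2 was the higher Tg array. The nucleotide enzymes Rrm1 (difference 0.06), Rrm2 (difference 0.03) and Tyms (difference 0.10) and the helicase loader Cdc6 (difference 0.12) overlapped between the groups. Rrm2 had a second, dimmer probeset with a difference of -0.06. Without Tg replicate 1 the median difference of the replication genes was 4.3e-04, with 6 of 11 higher.

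Mitosis genes had the highest median difference of the 3 groups, and most of it stood on 1 Tg array. Of 22 measured, 20 had a higher mean in Tg, with a median difference of 0.30, and 4 (18.2%) had an unadjusted p under 0.05, all of them higher, against 6.13% of all genes in that direction. Groups did not overlap in 8 that were higher (36.4%, against 18.6% of all genes) and in Cenpf, which was lower (23.7% of all genes). Role group means were 6.37 on Tg replicate 1 and 5.87 on Tg replicate 2, against 5.79 and 5.85 on the WT arrays. Relative to the WT mean, the median member was 0.53 higher on Tg replicate 1 and 0.0077 higher on Tg replicate 2. With Tg replicate 1 left out, 11 of the 22 were higher and 11 lower, and of the 4 only Ttk kept an unadjusted p under 0.05.

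Ccna2, the cyclin of S phase and mitotic entry, was at 8.22 and 6.91 on the Tg arrays, against 7.01 and 6.82 on the WT arrays. Cdk1, the kinase that starts mitosis, was at 7.24 and 6.04 on the Tg arrays, against 5.90 and 6.41 on the WT arrays. Ccnb2, a cyclin that activates it, was at 7.50 and 6.44 on the Tg arrays, against 6.65 and 6.81 on the WT arrays. In each of these, Tg replicate 1 was the highest array and Tg replicate 2 lay within or below the WT values. The proliferation marker Mki67 was at 7.51 and 6.65 on the Tg arrays, against 6.43 and 6.68 on the WT arrays (difference 0.52, SE 0.28, adjusted p = 0.550). Top2a, the topoisomerase that untangles chromosomes, was at 6.58 and 5.68 on the Tg arrays, against 5.39 and 5.63 on the WT arrays (difference 0.62, SE 0.29). In both, Tg replicate 2 lay close to a WT array and Tg replicate 1 stood far above.

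Both Tg arrays lay above both WT arrays in 8 mitosis genes, though only just in Top2a and Foxm1. Ttk, a kinase of the spindle checkpoint, was at 5.20 and 4.93 on the Tg arrays, against 4.56 and 4.47 on the WT arrays (difference 0.55, SE 0.13, adjusted p = 0.176). Its groups did not overlap, and without Tg replicate 1 its difference was 0.42. Ttk was dim, in the lowest 25% of all genes on 3 of the 4 arrays. Ube2c, which tags mitotic cyclins for destruction, was at 6.38 and 6.22 on the Tg arrays, against 5.95 and 5.91 on the WT arrays (difference 0.37, SE 0.11). Kif11, a motor that separates spindle poles, was at 5.97 and 5.32 on the Tg arrays, against 5.09 and 4.75 on the WT arrays (difference 0.72, SE 0.24). Aurkb, a kinase that corrects chromosome attachment, was at 6.35 and 5.90 on the Tg arrays, against 5.62 and 5.75 on the WT arrays (difference 0.44, SE 0.17). The kinetochore motor Cenpe was at 6.02 and 5.57 on the Tg arrays, against 5.38 and 5.43 on the WT arrays (difference 0.39). Without Tg replicate 1 the differences were 0.28 for Ube2c, 0.40 for Kif11, 0.22 for Aurkb and 0.16 for Cenpe. Plk1 had a difference of 0.41, also without overlap. Kif11, Top2a and Ccna2 were the only members to differ by at least 1.5-fold, against 3.76% of all genes, and none of them passed. Without Tg replicate 1 their differences were 0.40, 0.17 and -0.0066, so none of the 3 then reached that size.

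Some mitosis genes lay close to the WT level. Foxm1, a transcription factor that drives mitosis genes, was at 6.30 and 6.36 on the Tg arrays, against 6.19 and 6.29 on the WT arrays (difference 0.09, 95% confidence interval -0.17 to 0.35). Cdc20, an activator of the anaphase-promoting complex, had a difference of -0.0058 (95% confidence interval -0.26 to 0.24) and Cenpf, a kinetochore protein, one of -0.03. Aurka, the kinase of the spindle poles, had a difference of 0.10. These were the 4 mitosis genes whose highest array was not Tg replicate 1. The remaining ones, Nusap1, Bub1b, Tpx2, Kif20a, Bub1, Birc5 and Kif23, had differences of 0.05 to 0.46 and overlapped between the groups.

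Of the role groups, mitosis genes had the widest gaps between the 2 Tg arrays. Tg replicate 1 was above Tg replicate 2 in 19 of 22 mitosis genes, 10 of 11 replication genes and 7 of 17 G1 regulators, against 48.5% of all genes. It was the highest of the 4 arrays in 18 of 22 mitosis genes (81.8%), 8 of 11 replication genes (72.7%) and 2 of 17 G1 regulators (11.8%), against 20.2% of all genes. The gap was over 0.5 in 10 mitosis genes (45.5%) and in no replication gene or G1 regulator, against 1.96% of all genes, while Cdkn2a had a gap of -0.51. By its gap, Ccna2 (1.31) ranked 11 and Cdk1 (1.19) ranked 16 of the 22180 genes, followed by Ccnb2 (1.06, rank 31), Nusap1 (0.93, rank 54), Top2a (0.89, rank 63) and Mki67 (0.86, rank 72). Probesets that name Top2a together with Taf1d were not used and had smaller gaps of 0.23 and 0.34. An unused probeset that names Nusap1 together with Oip5 had a gap of 0.02. The WT arrays were apart by over 0.5 in 2 members, Cdk6 and Cdk1, against 5.28% of all genes. The median gap of the mitosis genes was 0.45 between the Tg arrays and -0.077 between the WT arrays (replicate 1 minus replicate 2 in each). Leukocyte markers had such gaps too, over 0.5 in 8 of 21 (38.1%), with Ms4a1 (1.39) at rank 8, Ptprc (1.17) at rank 18 and Cd79a (1.13) at rank 23. These gaps rest on 1 array and carry no test.

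**Figure D3:**
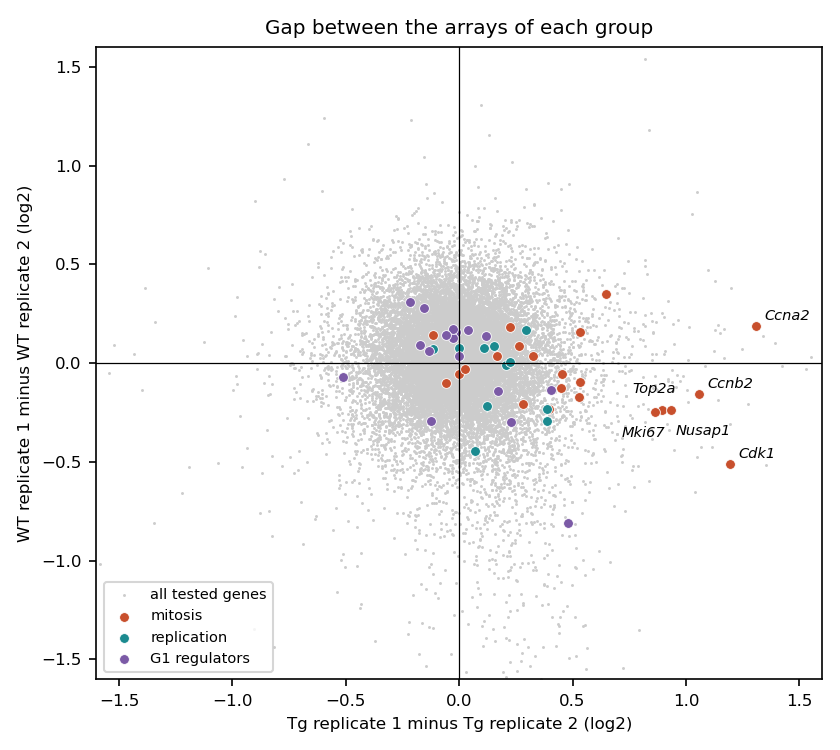
Gap between the 2 Tg arrays (x axis, log2) against the gap between the 2 WT arrays (y axis, log2), for all tested genes (grey, of which 92 lie outside the axes) and the members by role group. Ccna2, Cdk1, Ccnb2, Nusap1, Top2a and Mki67 lie far to the right, at 0.86 to 1.31, with WT gaps between -0.51 and 0.19.

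Other genes of the pathway, listed by role, were read in the same way. Of 122 measured, 0 passed the test by limma, against 0.897% of all genes, and 14 had an unadjusted p under 0.05 (11.5%), against 11.8% of all genes. Among 58 other mitosis genes, 42 had a higher mean in Tg with a median difference of 0.10, and Tg replicate 1 was the highest array in 36 (62.1%). Their mean level was 6.08 on Tg replicate 1 and 5.87 on Tg replicate 2, against 5.85 and 5.85 on the WT arrays. The 4 with the smallest p were the centrosome kinase Nek2 (difference 0.41), the cytokinesis factor Ect2 (difference 0.36), the condensin subunit Smc2 (difference 0.42) and the kinesin Kif18a (difference 0.38), and their groups did not overlap. Of the 58, 20 were higher in Tg without overlap (34.5%, against 18.6% of all genes) and 2 were lower (against 23.7%). Nek2 was at 5.39 and 5.38 on the Tg arrays, against 5.04 and 4.92 on the WT arrays, so its difference did not rest on 1 Tg array. It was picked by its small p, which favours arrays that agree within a group.

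Among 38 other replication genes, 17 were higher and 21 lower in Tg, with a median of -0.0075. Thymidine kinase (Tk1), which salvages thymidine in dividing cells, was at 6.05 and 6.04 on the Tg arrays, against 5.70 and 5.69 on the WT arrays (difference 0.35). Orc6, of the origin recognition complex, had a difference of 0.29, the dUTPase gene Dut one of -0.32 and the clamp loader subunit Rfc5 one of -0.30. Among 26 other G1 and Rb-E2F genes, 13 were higher and 13 lower, with a median of -0.012. The E2F partner Tfdp1 had a difference of -0.35, E2f5 one of -0.32 and E2f8 one of 0.28, all without overlap. Cks1b, the cofactor with which Skp2 marks p27 for destruction, was at 8.22 and 8.47 on the Tg arrays, against 7.97 and 8.0 on the WT arrays (difference 0.36, SE 0.13, adjusted p = 0.356). Skp2, which was picked after its value was seen, had a difference of -0.10.

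**Figure D4:**
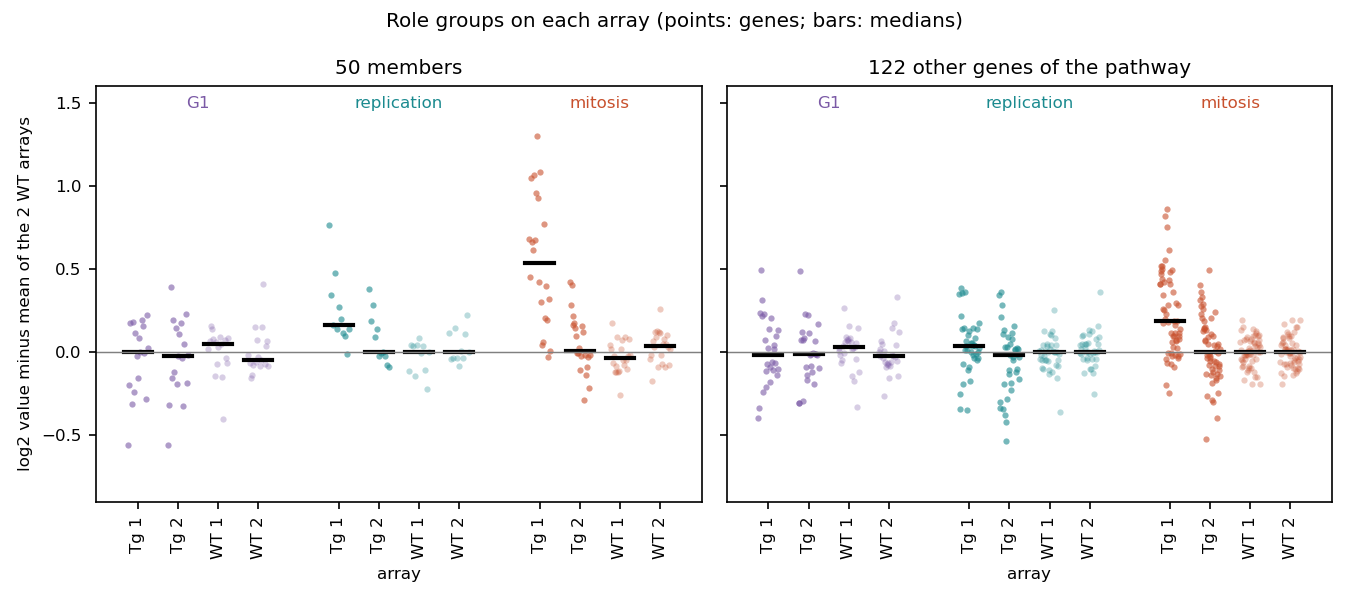
Log2 value minus the mean of the 2 WT arrays for each member (left) and each other gene of the pathway (right), by array and role group. Bars are medians, and the bar of the mitosis genes on Tg replicate 1 is at 0.53 for members and 0.18 for the others, while the other Tg and WT bars lie nearer to 0.

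Markers of other cells moved between the same arrays. All 21 measured leukocyte markers had a higher mean in Tg, and Tg replicate 1 was the higher Tg array in 17. List means were 7.78 and 7.33 on the Tg arrays, against 6.68 and 6.51 on the WT arrays. Of the 21, 3 passed the test by limma, against 0.897% of all genes. At an unadjusted p under 0.05 there were 18, against 11.8% of all genes. The pan-leukocyte gene Ptprc was at 8.60 and 7.44 on the Tg arrays, against 6.53 and 6.35 on the WT arrays, and the B cell gene Cd79a at 8.92 and 7.79, against 7.28 and 6.87. Here Tg replicate 2 was also above both WT arrays, which was so for 20 of the 21 leukocyte markers and for 9 of the 22 mitosis genes (40.9%), against 33.5% of all genes. All 14 endothelial markers were higher on Tg replicate 1 (list mean 8.58) than on Tg replicate 2 (8.30), against 8.12 and 7.92 on the WT arrays. Plasma cell markers had list means of 7.71 and 7.86 on the Tg arrays, against 6.67 and 7.03 on the WT arrays. Among them Mzb1 was higher in Tg and passed the test (adjusted p = 0.021 by limma). Of these 8 markers Pou2af1, Irf4 and Xbp1 were higher on Tg replicate 1, and the widest gap was that of the immunoglobulin joining chain gene Jchain, at 8.47 and 10.06 on the Tg arrays and 4.86 and 5.88 on the WT arrays. Of 10 mesenchymal markers 9 had a higher mean in Tg, with a median difference of 0.11. Their list means were 6.44 and 6.35 on the Tg arrays, against 6.00 and 6.10 on the WT arrays. Groups did not overlap in 4 (40%, against 18.6% of all genes) and overlapped in 6. The largest difference was that of the matrix gene Dcn (1.79), at 9.80 and 9.04 on the Tg arrays, against 7.49 and 7.76 on the WT arrays (adjusted p = 0.054 by limma). WT replicate 2 was the highest array for 9 of 10 acinar markers and for 3 of 6 duct markers. Among the 6 duct markers, 1 had a higher and 5 a lower mean in Tg, with a median difference of -0.28, and groups overlapped in 4. Duct list means were 8.26 and 8.11 on the Tg arrays, against 7.61 and 8.74 on the WT arrays. The chloride channel gene Cftr was higher, at 7.80 and 7.75 on the Tg arrays, against 5.13 and 5.83 on the WT arrays (adjusted p = 0.021 by limma). Prom1 was lower, at 9.16 and 9.40 on the Tg arrays, against 10.31 and 10.26 on the WT arrays (adjusted p = 0.036 by limma). Beta cell markers averaged 11.24 and 11.31 on the Tg arrays, against 11.50 and 11.26 on the WT arrays. Of 6 markers of alpha, delta and PP cells 5 had a lower mean in Tg, with list means of 10.09 and 10.11 on the Tg arrays, against 10.57 and 10.38 on the WT arrays. The part of these cells in the differences and gaps of cell cycle genes was not tested, and in whole islets more cells of a type and more RNA per cell cannot be told apart.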

How the data were processed

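Islet RNA (250 ng) was labelled and read on Affymetrix Mouse Gene 2.0 ST arrays. The values the authors deposited run between 2.87 and 13.9 and were taken as log2 signals. Partek and RMA, with no version, stand in the submitters' processing notes. Groups came from the sample titles. Of 27037 probesets, 23521 named 1 gene, 1814 named several and 1702 none. The brightest single-gene probeset by its mean over the 4 arrays stood for a gene, with no filter on low values. Differences are Tg minus WT, fitted with limma 3.58.1 in R 4.3.3 (lmFit, eBayes) and adjusted by Benjamini-Hochberg over all 22180 genes. The fit had 2 residual and 3.76 prior degrees of freedom, and exact permutation of the 4 arrays gives no two-sided p below 0.333. The number of arrays limits the precision. The fit was tested on simulated data.

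The members, gene lists and tests were chosen with earlier results of these data known. In each role group, values on every array are given for the 5 members with the smallest p, the 3 with the widest replicate gaps and 10 genes fixed by name, and up to 4 genes with the smallest p are named from each wider list. Cell marker lists are described by counts and list means. Sequences are RefSeq's on GRCm38.p6, and for the array no build is given in the sources used here. Alternatives were other summaries of probesets, a level filter, normalisations, variance models, a replicate block and each array left out. Replicate deviations correlated at -0.063 between the groups, so the numbers were not taken to pair arrays.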

Additional observations from a re-analysis of the deposited data

How the results depend on the processing

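Against 199 genes past the adjusted threshold, there were 347 under a robust prior with variance trend, 24 with the replicate block, 0 without moderation (1928 genes at an unadjusted p under 0.05, against 2627 with it) and 38 to 135 with each array left out. The 0 members past the threshold became 1 with the robust prior, where Cdkn1b was lower in Tg at an adjusted p of 0.040, and stayed 0 in the other alternatives, as did the wider genes in all. The 6 members at an unadjusted p under 0.05 became 3 of 29 above the median level, 1 without moderation (Cdkn1b) and 2 to 15 with each array left out, 2 without Tg replicate 1 and 15 without Tg replicate 2. The replicate block gave 5, without Aurkb (unadjusted p = 0.071 by limma), and changed no other call among the members. A variance trend gave 8, with Ccnd2 and Pcna added, and so did the trend with a robust prior. Of all genes, 15.6% had such a p above the median level, 8.69% without moderation and 10.3% with the replicate block. The share was 12.1% with the variance trend and 12.3% with the robust prior, against 11.8% in the main fit. This share was 8.01% without Tg replicate 1, 8.66% without Tg replicate 2, 11.9% without WT replicate 1 and 12.8% without WT replicate 2. Counts and shares with an array left out rest on 1 array in a group, so no conclusion is drawn from them. Median differences with each array left out lay between 0.0077 and 0.53 for mitosis genes, 4.3e-04 and 0.16 for replication genes and -0.061 and 0.0054 for G1 regulators, whose median was -0.019 after quantile normalisation and -0.010 after centring.

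Of 356 values of 28 members under these alternatives, 342 kept direction and side of the threshold, and 8 members turned sign at least once. With each array left out these lay between -0.29 and 0.77 for Ccnb2, -0.11 and 1.08 for Cdk1, -0.0066 and 1.30 for Ccna2, -0.18 and 0.22 for Cdk2 (-0.013 after quantile normalisation), -0.49 and 0.32 for Cdk6, -0.28 and 0.23 for Cdkn2a, -0.074 and 0.23 for Ezh2 and -0.27 and 0.18 for Mcm6. The cause of these changes of sign was not tested, and each fit with an array left out holds fewer arrays. Of the 22 mitosis genes, 17 lay below the median level of all genes. Ttk, Ube2c, Kif11 and Aurkb were among these, so the level filter left them out.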
